A study of Mus musculus with 10 samples.

Results

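Polycomb repressive complex 2 (PRC2) is the enzyme complex that adds methyl groups to lysine 27 of histone H3. Its mRNAs were followed here as 9 genes: the methyltransferases Ezh2 and Ezh1, the core subunits Eed and Suz12, the histone chaperones Rbbp4 and Rbbp7, and the accessory subunits Jarid2, Mtf2 and Phf19. The members were taken by gene symbol matched to Ensembl identifiers. All 9 were found among the 22713 genes of the deposited tables, and all 9 were above 1 CPM, the usual unit of read counts scaled by library size, in both tables.

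PRC2 needs EED and SUZ12 beside an EZH enzyme for its activity, and EZH2 is the enzyme that dividing cells mostly use, whereas EZH1 is found more in cells that divide little. JARID2 on one side and the Polycomb-like proteins MTF2 and PHF19 on the other belong to alternative forms of the complex and help to bring it to CpG-rich DNA. In mouse embryonic stem (ES) cells PRC2 holds developmental genes at a low level, and ES cells can self-renew without it but differentiate poorly.

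The study asked how the AAA+ ATPase Pontin (gene Ruvbl1) and the pluripotency factor Oct4 (gene Pou5f1) act on transcription in mouse ES cells, and how the long noncoding RNA linc1253 takes part. Pontinf/f; CreER ES cells, in which 4-hydroxytamoxifen (OHT) activates Cre and removes the floxed Pontin alleles, gave 1 mRNA library each without OHT (WT), at 3 days (OHT 3D) and at 4 days (OHT 4D). ZHBTc4 ES cells, whose only Oct4 comes from a transgene that tetracycline (Tc) shuts off, gave 1 library after 2 days of Tc (Tc 2D). ZHBTc4 cells without Tc gave 2 libraries with the pLKO control lentivirus and 2 with the pLKO shlinc1253 lentivirus, both 4 days after lentiviral infection, and 1 Pontin and 1 GFP chromatin immunoprecipitation (ChIP-seq) library from untreated cells. WT thus differs from Tc 2D in cell line as well as in Oct4, and all cells of the Pontin series carry the floxed alleles and CreER. The methods state that ES cells were grown either with fibroblast feeders or without them and do not say which applied to a library.

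The reads on genes ranged from 17187595 to 37951742 per library. Ruvbl1 was 198 CPM in WT, 33.3 at OHT 3D and then 50.9 at OHT 4D. It was also below WT at Tc 2D, with 85.0 CPM. WT is another cell line. In the other table Ruvbl1 was 166 and 186 CPM in the control shRNA libraries of ZHBTc4 cells, the line of Tc 2D. The part of cell line in the low Tc 2D value was not tested. The paper reports no significant change of Pontin mRNA or protein after Oct4 depletion. Pou5f1 was 301 CPM in WT and 21.1 at Tc 2D and, in the other table, between 582 and 642 CPM in the control shRNA libraries. ES cell markers summed to 5091 CPM in WT, 4708 at OHT 3D, then 5289 at OHT 4D, with 1037 at Tc 2D. The 4 libraries WT to Tc 2D and the 4 shRNA libraries were normalized in separate tables, so levels are compared within a table unless a common scale is named.

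In the NCBIM37 build the members lie on 8 chromosomes, with Ezh1 and Suz12 both on chromosome 11. The enzymes are Ezh2 (ENSMUSG00000029687) at chr6:47480273-47545340 (minus strand) and Ezh1 (ENSMUSG00000006920) at chr11:101052429-101087777 (minus strand). The core subunits are Eed (ENSMUSG00000030619) at chr7:97103166-97129493 (minus strand), Suz12 (ENSMUSG00000017548) at chr11:79806608-79847625 (plus strand), Rbbp4 (ENSMUSG00000057236) at chr4:128984344-129012614 (minus strand) and Rbbp7 (ENSMUSG00000031353) at chrX:159198334-159217024 (plus strand). The accessory subunits are Jarid2 (ENSMUSG00000038518) at chr13:44824843-45017012 (plus strand), Mtf2 (ENSMUSG00000029267) at chr5:108494693-108538023 (plus strand) and Phf19 (ENSMUSG00000026873) at chr2:34749277-34769546 (minus strand).

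To show the regions on which the ChIP-seq and the gene starts bear, promoter sequence is given for 4 members: Ezh2 and Rbbp4, which had the highest Pontin over GFP ratios, and Suz12 and Phf19, which held a word of the E2F family, transcription factors of the cell cycle. Each sequence runs 5′ to 3′ on the strand of the gene, from 250 bases before to 50 bases after the gene start in the NCBIM37 annotation. The Ezh2 sequence is chr6:47545291-47545590 (minus strand), that of Rbbp4 is chr4:129012565-129012864 (minus strand), that of Suz12 is chr11:79806358-79806657 (plus strand) and that of Phf19 is chr2:34769497-34769796 (minus strand). Capitals mark an E2F word (TTTGGCGC, TTTCCCGC, TTTCGCGC or TTTGCCGC, on either strand) or a CCAAT word (CCAAT or its complement ATTGG).
Ezh2: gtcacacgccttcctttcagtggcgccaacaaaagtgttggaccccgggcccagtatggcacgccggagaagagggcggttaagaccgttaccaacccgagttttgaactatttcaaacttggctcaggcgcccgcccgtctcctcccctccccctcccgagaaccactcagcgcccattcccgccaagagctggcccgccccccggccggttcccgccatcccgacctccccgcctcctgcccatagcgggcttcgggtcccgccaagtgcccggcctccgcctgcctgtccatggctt
Rbbp4: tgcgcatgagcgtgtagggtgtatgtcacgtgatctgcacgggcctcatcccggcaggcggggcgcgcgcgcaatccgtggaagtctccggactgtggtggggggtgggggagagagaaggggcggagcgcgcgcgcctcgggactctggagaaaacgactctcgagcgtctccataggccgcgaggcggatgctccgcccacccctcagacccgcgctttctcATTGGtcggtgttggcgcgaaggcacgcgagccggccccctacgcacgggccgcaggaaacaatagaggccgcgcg
Suz12: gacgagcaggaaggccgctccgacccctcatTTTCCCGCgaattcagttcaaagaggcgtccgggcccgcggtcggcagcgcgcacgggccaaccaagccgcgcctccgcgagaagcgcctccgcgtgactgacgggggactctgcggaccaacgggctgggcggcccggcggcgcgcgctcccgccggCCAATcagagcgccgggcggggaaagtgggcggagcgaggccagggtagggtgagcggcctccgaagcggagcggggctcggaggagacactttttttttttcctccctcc
Phf19: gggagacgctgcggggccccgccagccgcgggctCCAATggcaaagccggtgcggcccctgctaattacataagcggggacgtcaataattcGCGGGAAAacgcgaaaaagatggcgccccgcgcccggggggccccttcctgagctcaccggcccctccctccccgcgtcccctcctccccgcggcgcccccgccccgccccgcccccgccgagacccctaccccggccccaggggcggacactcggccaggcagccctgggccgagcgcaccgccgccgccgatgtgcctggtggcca

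The promoters of the 9 members held between 8 CG dinucleotides (Jarid2) and 41 (Suz12) in 300 bases, against a median of 11 over 22367 protein-coding promoters. Their GC content ran from 46.3% for Jarid2 to 75.7% for Phf19, with a median of 55% over all promoters. The windows of Ezh2 and Jarid2 share 0 words of 30 bases with the RefSeq promoters of these genes (GRCm38.p6), whereas those of the other 7 share at least 221. The Ezh2 sequence printed above and the low Jarid2 value therefore come from windows that differ from those of RefSeq. An E2F word occurred in 2 members, Suz12 and Phf19, and in 2.72% of all promoters. CCAAT occurred in 6 members and in 37.9% of all promoters. The octamer ATGCAAAT, the word that Oct factors read, occurred in 0 members and in 1.73% of promoters, and the E-box CACGTG occurred in Rbbp4 alone and in 7.78%. These are matches of letters in 1 window per gene and were not tested as binding sites.

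In WT, Rbbp7 had the highest level per kb of its longest coding transcript, 200.4 CPM per kb, and Phf19 the lowest, 9.95. Between them lay Jarid2 with 78.6, Eed with 74.9, Rbbp4 with 72.2, Ezh2 with 62.5, Suz12 with 58.3, Mtf2 with 45.4 and Ezh1 with 10.4 CPM per kb. The histone chaperone was therefore the most abundant of the mRNAs and the Ezh1 and Phf19 mRNAs the least. Rbbp7 kept the first place in all 8 libraries, and Ezh1 and Phf19 held the last 2 places in all 8. The middle of the order changed at Tc 2D, where Ezh2 was next to Rbbp7 with 41.1 CPM per kb and Jarid2 dropped to 30.8 CPM per kb, the 7th place. It also differed from WT at OHT 4D and in the shRNA libraries, where Eed was next to Rbbp7. In the shRNA libraries Mtf2 stood above Ezh2. With 1 library per condition, neighbours in these orders cannot be separated by a spread between samples.

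**Figure D1:**
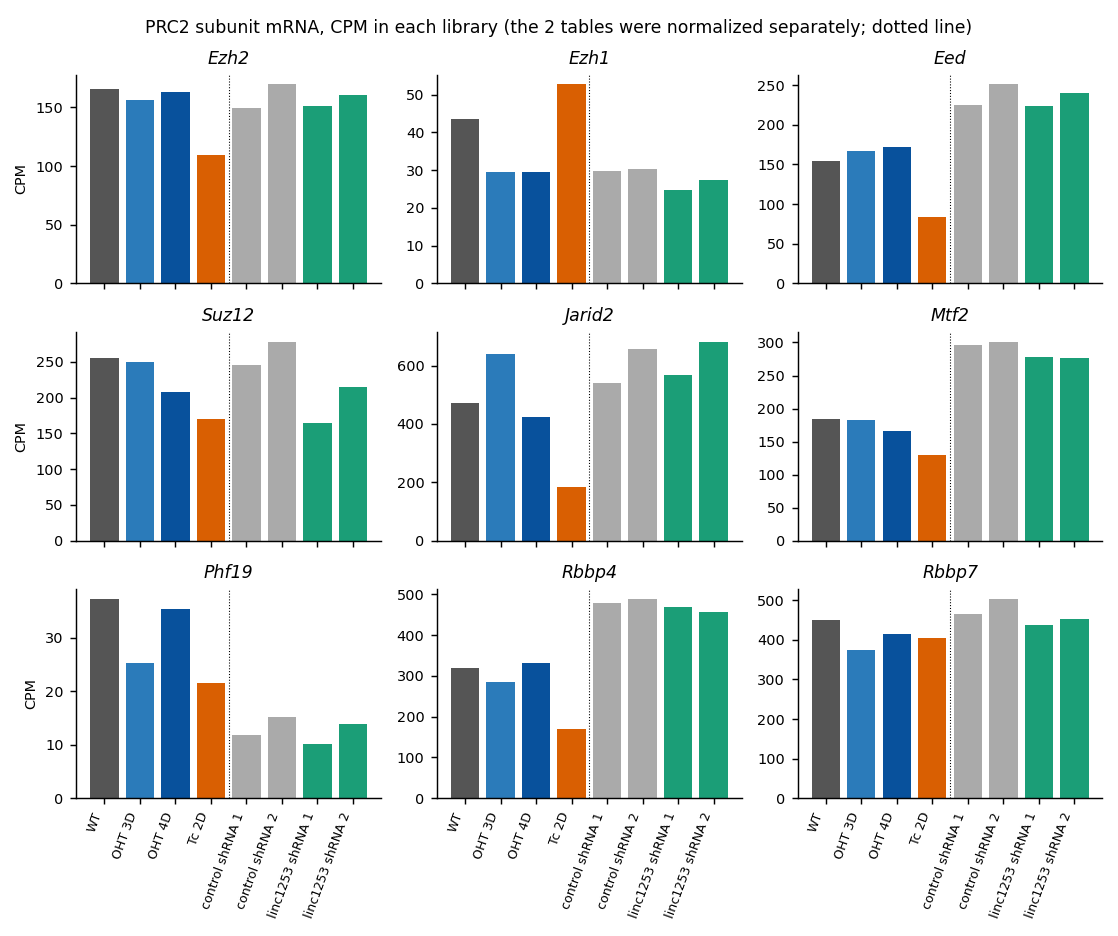
CPM of the 9 PRC2 subunits in the 8 mRNA libraries, 1 bar per library and 1 panel per gene, each with its own linear axis from 0; the dotted line parts the 2 separately normalized tables. At Tc 2D, 8 of 9 subunits were below WT and Ezh1 was above it.

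In the Pontin-depleted libraries the catalytic pair differed. Ezh2, the main methyltransferase of ES cells, was 166 CPM in WT, 157 at OHT 3D and then 163 at OHT 4D. Ezh1, its paralogue, was 43.6 CPM in WT, 29.4 at OHT 3D and then 29.6 at OHT 4D. Ezh1 was thus lower in both OHT libraries than in the 1 WT library that both comparisons share, whereas the Ezh2 values lay close together. A log2-fold-change was computed on log2(CPM + 1) against WT, and, as in the methods of the study, a gene was called at an absolute value above 0.58. For Ezh1 it was -0.55 at OHT 3D, where counting error (95%) allows -0.69 to -0.41, and a day later -0.54, where it allows -0.68 to -0.41. Both values stopped short of the limit. Such intervals cover the counting of reads only and say nothing of the spread between cultures, since each condition had 1 library. In the replicate shRNA libraries, the spread over genes exceeded counting error. The chi-square per gene was 18.1 for the control pair and 17.9 for the linc1253 pair, where counting alone gives about 1. The widest member, Phf19, differed by 0.33 and 0.41 in log2(CPM + 1) within these pairs.

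Of the core subunits, Eed, which binds the methylated histone tail, was 155 CPM in WT, 167 at OHT 3D and then 172 at OHT 4D. Suz12, the scaffold on which the complex is built, was 255 CPM in WT, 250.3 at OHT 3D and then 208 at OHT 4D. Suz12 was low at OHT 4D only, with a log2-fold-change of -0.29 (-0.35 to -0.24) against -0.03 (-0.08 to 0.03) at OHT 3D. Rbbp4 was 318, 286 and 332 CPM and Rbbp7 was 449.7, 374 and 415 CPM in the WT, OHT 3D and OHT 4D libraries. These chaperones, which also serve the NuRD, Sin3 and CAF-1 complexes, were lowest at OHT 3D, with log2-fold-changes of -0.15 for Rbbp4 and -0.26 for Rbbp7.

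Of the 9 members, the accessory subunits Jarid2 and Phf19 differed most between the 2 time points, whereas Mtf2, the other accessory subunit, did not stand out. Jarid2, which lacks demethylase activity and links PRC2 to chromatin, was 471 CPM in WT, 640.5 at OHT 3D and then 425 at OHT 4D. Jarid2 thus had a log2-fold-change of 0.44 (0.41 to 0.48) on day 3 and of -0.15 (-0.19 to -0.11) on day 4, so that the 2 libraries lay on opposite sides of WT. Phf19 was 37.2 CPM in WT, 25.2 at OHT 3D and then 35.4 at OHT 4D, a log2-fold-change of -0.54 (-0.69 to -0.39) and then -0.07 (-0.21 to 0.06). Mtf2 was 184 CPM in WT, 183 at OHT 3D and then 166 at OHT 4D. Between the 2 time points the difference of log2(CPM + 1), OHT 4D minus OHT 3D, was -0.59 for Jarid2 and 0.47 for Phf19, and it lay between -0.27 and 0.21 for the other 7 members.

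None of the 9 members was called at OHT 3D, where 6.01% of the 13449 genes kept were called upregulated and 5.88% downregulated. None was called at OHT 4D either, where the shares over all genes were 6.48% and 8.89%. The median log2-fold-change of the members was -0.08 at OHT 3D and then -0.12 at OHT 4D, beside -0.02 and 0.00 over all genes. At each time point the counting interval lay below 0 for 5 members and above 0 for 2. The matching share over all genes was not computed, so these counts do not set the members apart from other genes. The replicate shRNA libraries differed by more than counting error, so such intervals leave out 0 too readily. Ezh1 and Rbbp7 lay below 0 at both, and Eed lay above 0 at both.

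Fibroblast markers moved with the OHT libraries: 16 of the 18 expressed markers were called upregulated at OHT 3D and 17 of 18 at OHT 4D, and the 20 listed genes summed to 1130 CPM in WT, 1523 at OHT 3D and then 1702 at OHT 4D. Col1a1 was 4.20 CPM in WT, 46.5 at OHT 3D and then 64.6 at OHT 4D, and Lum was at 0 in WT and at OHT 3D. Markers below 1 CPM in WT, such as Col3a1 with 0.581 CPM, passed the filter through other libraries, so these counts lean upward. Trophectoderm markers summed to 97.4, 173 and 346 CPM in the same libraries. Krt8, at 19.8, 65.1 and 155 CPM, and Krt18, at 17.7, 44.2 and 110 CPM, carried most of that rise. Eomes of the same list was called downregulated at OHT 3D (-0.67). The part of any such cells in the members' values was not tested, and in bulk RNA fewer cells of a type and less RNA per cell cannot be told apart.

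The Tc 2D library, in which Oct4 was depleted and the cell line was another, differed from WT at most members. Against WT, 8 of the 9 members were lower at Tc 2D and Ezh1 was higher. Jarid2, at 185 CPM against 471, had the largest difference, a log2-fold-change of -1.35 (-1.40 to -1.30), which left 39.1% of the WT level. Only 7.10% of the genes kept had a lower log2-fold-change than Jarid2.

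The core subunits Eed and Rbbp4 followed. Eed was 84.3 CPM at Tc 2D against 155 in WT, a log2-fold-change of -0.87 (-0.94 to -0.79), and Rbbp4 was 169 against 318 CPM, a log2-fold-change of -0.91 (-0.96 to -0.86). Phf19 was 21.5 against 37.2 CPM, with -0.77 (-0.91 to -0.62). Ezh2 was 109 against 166 CPM, with -0.60 (-0.67 to -0.53), and Suz12 was 170.3 against 255 CPM, with -0.58 (-0.64 to -0.53). These 6 members were called downregulated and 0 were called upregulated, where 25.8% of all genes kept were called downregulated and 23.9% upregulated. The intervals of Ezh2 and Suz12 held the limit, so that counting error alone did not place either on one side of it.

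The 3 members not called at Tc 2D stood apart in different ways. Mtf2 was 129 against 184 CPM, a log2-fold-change of -0.51 (-0.57 to -0.44). Rbbp7 was 404 against 449.7 CPM, with -0.15 (-0.19 to -0.12). Ezh1 was 52.7 against 43.6 CPM, with 0.27 (0.15 to 0.38), and it was the only member with more CPM than in WT.

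**Figure D2:**
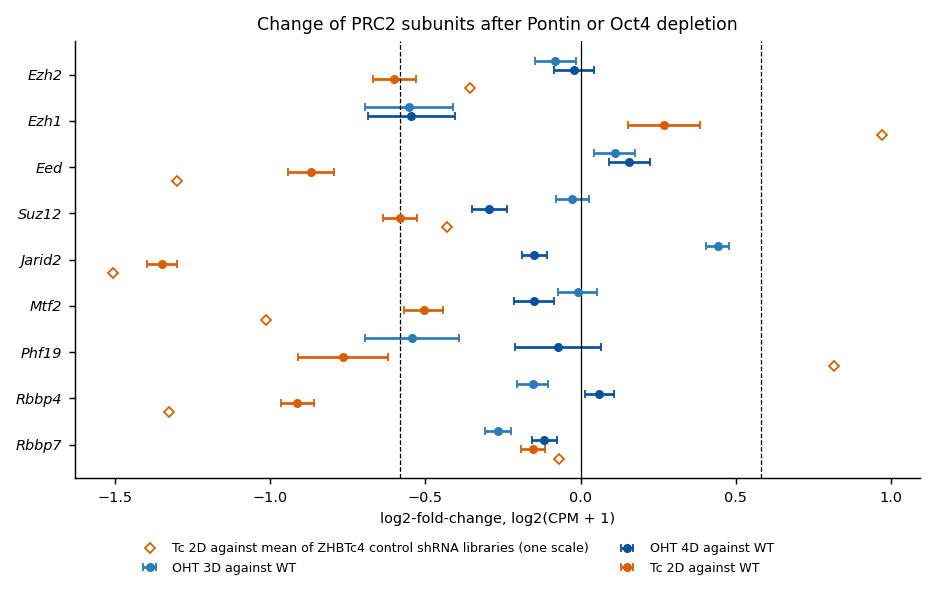
Log2-fold-change on log2(CPM + 1), horizontal axis, of each PRC2 subunit at OHT 3D, OHT 4D and Tc 2D against WT; bars are 95% counting intervals, open diamonds give Tc 2D against the mean of the 2 ZHBTc4 control shRNA libraries on one scale, and dashed lines mark the limit of 0.58. Jarid2, Rbbp4 and Eed lay beyond the limit under both controls, whereas Phf19 changed sides.

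How the Tc 2D library was scaled moved these counts. Its deposited CPM summed to 638591, the lowest of the 8 libraries, and with CPM that carry no TMM factor the median log2-fold-change of all genes was 0.25 in place of -0.06. On that scale Eed, Phf19, Ezh2, Suz12 and Mtf2 were within the limit, Jarid2 (-1.03) and Rbbp4 (-0.59) were called downregulated, where 16.0% of 13901 genes were. Ezh1 (0.59) was called upregulated, where 35.7% were, and Rbbp7 turned to 0.17. Measured from the median of all genes, the members' median was -0.54 with TMM and -0.53 without it, and 4 members, Eed, Jarid2, Phf19 and Rbbp4, lay more than 0.58 below the median of all genes under TMM, under median-ratio scaling and without either. The shares of all genes as far below their median were 23.4%, 23.5% and 24.4%.

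Since WT is another cell line, Tc 2D was also set against the mean of the 2 control shRNA libraries of ZHBTc4 cells, with all libraries on one median-ratio scale. There, 4 members were called downregulated, where 24.0% of 13479 genes were, and 2 were called upregulated, where 23.9% were. Jarid2 (-1.50), Rbbp4 (-1.33), Eed (-1.30) and Mtf2 (-1.01) were the 4 members called downregulated. Ezh1 and Phf19 were called upregulated, with 0.97 and 0.82. Ezh2 (-0.36), Suz12 (-0.43) and Rbbp7 (-0.07) were not called.

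Phf19 thus turned its direction with the control. On the common scale it was 37.2 in WT, 10.4 and 13.4 in the ZHBTc4 control libraries and 21.8 at Tc 2D, so that Tc 2D lay between the lines. Ezh1, in contrast, was highest at Tc 2D against either control, with 53.3 on the common scale against 43.6 in WT and 26.48 and 26.98 in the control libraries. Eed, Mtf2, Rbbp4 and Jarid2 were each higher in both ZHBTc4 control libraries than in WT and lowest at Tc 2D. The control libraries carried lentivirus and the Tc 2D library did not. The paper also lists different Illumina sequencers for the shRNA libraries and for the other mRNA libraries, Tc 2D and WT among them. Line, virus, sequencer and Oct4 thus cannot be told apart in full by either control. The lines also differ in their sex chromosomes: Ddx3y, a Y-linked gene, was 0 CPM in WT, 43.5 at Tc 2D and, in the other table, 51.3 and 45.9 in the control libraries, which concerns Rbbp7, the X-linked member, beside its value of -0.15 against WT and -0.07 against the ZHBTc4 controls. Of the other Y-linked genes looked at, Eif2s3y and Uty were also 0 CPM in WT, with 51.1 and 20.8 CPM at Tc 2D, whereas Kdm5d was 0 in WT, 0.106 CPM at Tc 2D and 3.37 and 3.53 CPM in the control libraries, so Tc 2D did not match the ZHBTc4 controls at every Y-linked gene.

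Other marker lists moved with Tc 2D. Of 18 expressed fibroblast markers 6 were called upregulated and 6 downregulated. Of 19 ES cell markers, 17 were called downregulated, and of 13 expressed trophectoderm markers 12 were called upregulated, where 25.8% and 23.9% of all genes were. Markers such as Hand1 and Gata3, at 0.268 and 0.313 CPM in WT, passed the filter through other libraries, so the trophectoderm count leans upward. All 14 markers found had summed levels of 97.4 CPM in WT and 596 at Tc 2D. Hand1, a trophoblast regulator, was 61.8 CPM at Tc 2D. Of 18 proliferation genes 15 were called downregulated, with a median log2-fold-change of -0.89 beside -0.06 over all genes, and their summed level was 5631 CPM in WT and 3152 at Tc 2D. Mki67, a proliferation marker, was 296 CPM in WT and 379 at Tc 2D and went the other way. The part of cell identity and of proliferation in the members' values was not tested.

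The balance between paralogues gave a measure that needs no scaling between libraries. The ratio of Ezh2 reads to Ezh1 reads was 3.80 in WT, 5.33 at OHT 3D, then 5.53 at OHT 4D, with 2.07 at Tc 2D. In the ZHBTc4 libraries it was 5.00 and 5.59 with the control shRNA and 6.13 and 5.89 with the linc1253 shRNA. Tc 2D was therefore the lowest of all 8 libraries, and per kb Ezh2 still exceeded Ezh1 there by 3.29 times.

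The ratio of Rbbp4 reads to Rbbp7 reads was 0.707 in WT, 0.764 at OHT 3D, then 0.800 at OHT 4D, with 0.417 at Tc 2D. The 4 shRNA libraries lay between 0.970 and 1.07, so that Tc 2D was lowest for this pair too. Jarid2 and Suz12, an accessory and a core subunit, are not paralogues. The ratio of Jarid2 to Suz12 per kb was 1.35 in WT, 1.87 at OHT 3D, then 1.49 at OHT 4D, with 0.790 at Tc 2D. In the shRNA libraries that ratio was 1.60 and 1.73 with the control and 2.52 and 2.31 with the linc1253 shRNA. It mostly restates the Suz12 difference given below, a log2-fold-change of -0.47 beside 0.06 for Jarid2. The share of gene pairs with such a gap was not computed. Mtf2 over Phf19 per kb lay between 4.32 and 6.68 in the first table and between 18.4 and 25.2 in the ZHBTc4 shRNA libraries.

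**Figure D3:**
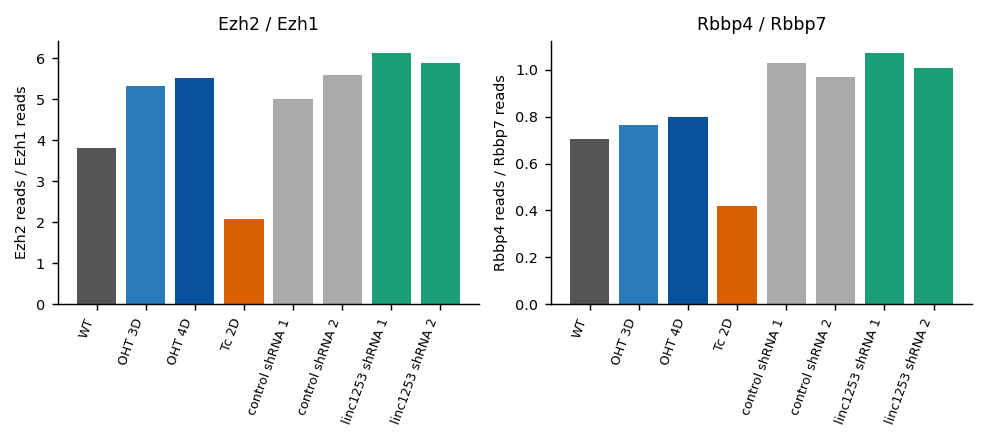
Ratio of Ezh2 to Ezh1 reads (left) and of Rbbp4 to Rbbp7 reads (right) in each of the 8 mRNA libraries, on linear axes from 0. Tc 2D was the lowest library in both panels, at 2.07 and 0.417.

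Over the 8 libraries, with each table's own mean taken off, Ezh2 moved most like Eed among the members (Pearson r of 0.97) and also like Rbbp4 (0.96). Ezh1 had negative r with 7 of the other 8 members, from -0.08 with Suz12 to -0.77 with Eed, and a positive r of 0.48 with Rbbp7. Of all 9957 genes with a mean of at least 5 CPM in each table, those most like Ezh2 were Bcat2 (0.999), Ncaph (0.998) and Taf9 (0.998), beside a median r of 0.23. Those most like Ezh1 were Abca2 (0.991), Mkrn2 (0.991) and Pde8a (0.983), beside a median of -0.11. The points share libraries and the Tc 2D library lies far from the rest, so these r describe 8 libraries and no more.

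Knockdown of linc1253 was the comparison with replicates, 2 libraries against 2. Suz12 had the largest difference of the 9 members. It was 246 and 278 CPM in the control libraries and 165 and 215 CPM in the linc1253 shRNA libraries, so that the groups did not overlap. Both knockdown libraries were likewise lower for 19.2% of 13407 genes. The means were 262 ± 22.8 and 190.0 ± 35.5 CPM (SD, n = 2 each). In limma with trend the log2-fold-change was -0.47 (SE 0.144, unadjusted p = 0.0161), and with Benjamini-Hochberg adjustment over 13407 genes the p was 0.597. It was -0.28 without linc1253 shRNA replicate 1, where the unadjusted p in limma was 0.106, and -0.66 without replicate 2. Each of these fits leaves 1 knockdown library, which is assumed to vary like the 2 control libraries.

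Ezh1 was next in size, with 29.9 and 30.3 CPM in the control and 24.7 and 27.3 CPM in the linc1253 shRNA libraries. Its log2-fold-change was -0.21 (SE 0.108, adjusted p = 0.720 in limma). Mtf2, at 297 and 301 CPM against 278 and 277, had -0.11, and Rbbp7, at 465 and 503 against 438 and 452, had -0.12. Rbbp4 was 479.6 and 488 CPM against 469 and 456. In these genes and Suz12, 5 members in all, both knockdown libraries were below both control libraries, where 19.2% of 13407 genes were.

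Ezh2, Eed, Jarid2 and Phf19 overlapped between the groups. Ezh2 was 150 and 170 CPM with the control and 151 and 161 CPM with the linc1253 shRNA, and its log2-fold-change was -0.03 (SE 0.099). Jarid2 was 540.1 and 657 CPM against 569 and 681, and Eed was 225 and 251 against 224 and 240.3. Phf19, the least abundant, was 11.8 and 15.1 against 10.2 and 13.8 CPM. In each of these 4 genes the spread within a group was as wide as the difference between groups or wider. Replicate 2 was above replicate 1 in both groups for each of them, so part of this spread goes with the replicate number. With that number as a block, their adjusted p in limma lay between 0.281 and 0.766.

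In limma with no term for the replicate number, no member was called at an adjusted p under 0.05, where 0% of the 13407 genes were called. At an unadjusted p under 0.05, 1 member, Suz12, and 999 genes (7.45%) passed. With the replicate number as a block, a fit taken up in the last section, limma called 1 member, Suz12, and 14.6% of genes. The paper called genes after this knockdown by another rule, a combined p under 0.05 from 2 tests with a limit on the log2-median ratio. Without control shRNA replicate 2 limma called 4 genes and without linc1253 shRNA replicate 1 it called 19, with 0 members in either and 1 library left in an arm. The edgeR quasi-likelihood test called 0 genes, DESeq2 called 23 higher and 27 lower, and the edgeR exact test called 38 higher and 42 lower, with 0 members among them. Both knockdown libraries lay below both controls for 5 members and above both for 0, where 19.2% and 18.8% of all genes did so. Between the 2 control libraries, 3.10% of genes differed by more than 0.58, and 0 members did, the widest being Phf19 at 0.33. Nothing in the labels says that the replicates are separate cultures, so the p-values measure only the spread between these samples.

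**Figure D4:**
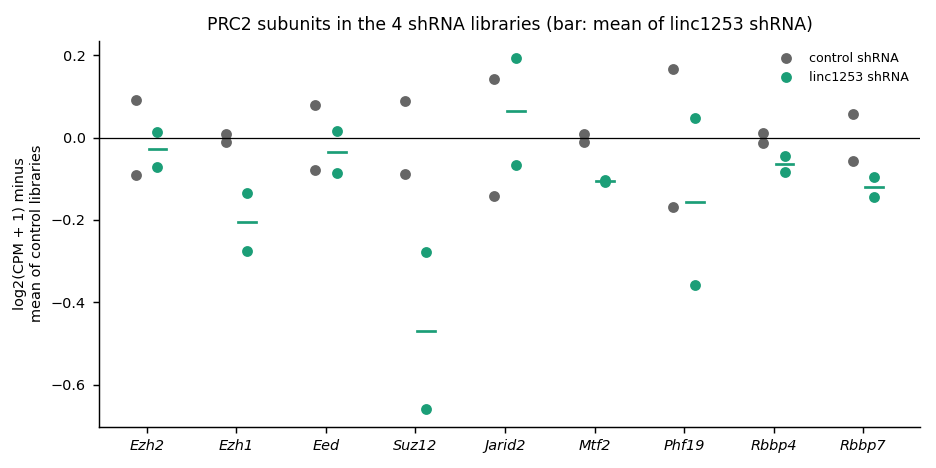
Log2(CPM + 1) of each PRC2 subunit in the 4 shRNA libraries, after subtracting the mean of the 2 control libraries; points are libraries and short bars the mean of the linc1253 shRNA libraries. The Suz12 knockdown libraries both lie below the controls, as do those of 19.2% of all genes, and those of Ezh2, Eed, Jarid2 and Phf19 overlap with them.

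ChIP-seq with an antibody against Pontin or GFP gave 40729076 and 17185883 reads, 1 library each. Reads were counted from 2.5 kb before to 500 bases after each gene start and scaled by library size. Ezh2 and Rbbp4 had a Pontin signal more than 2-fold over GFP, that is a log2 ratio above 1, where 14.8% of 21178 promoters had one. Of the 12775 promoters whose genes were above 1 CPM in the control shRNA libraries, as all members were, 17.4% had one. Ezh2 had 123 Pontin and 20 GFP reads, a log2 ratio of 1.38 (0.69 to 2.14), higher than 94.2% of promoters. Rbbp4 had 155 and 29 reads, a log2 ratio of 1.17 (0.59 to 1.80), higher than 90.1%. Both intervals hold 1 and lie above 0. The listed reads include both mates of a fragment, and the intervals treat mates as independent, so they are too narrow.

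The other 7 members lay between -0.03 for Suz12, with 135 Pontin and 58 GFP reads, and 0.41 for Phf19, with 123 and 39 reads. In this window all 7 of their counting intervals held 0, so that a difference between the antibodies was not detectable there at this depth. Within 1 kb either side of the start, 3 members were above 1, where 26.3% of 20959 promoters were. They were Rbbp4 (1.70), Ezh2 (1.59) and Eed, with 83 Pontin and 17 GFP reads and a log2 ratio of 1.04 (0.28 to 1.89). For Phf19, at 0.71 (0.015 to 1.45), the lower end lay just above 0 in that window, and the other 5 intervals held 0. Since these intervals are too narrow, that of Phf19 does not settle whether it leaves out 0. In the longer window Eed had 96 and 32 reads (0.34), Ezh1 108 and 40 (0.19), Jarid2 81 and 32 (0.10), Mtf2 93 and 39 (0.01) and Rbbp7 61 and 26 (-0.01). The median of the 9 members was 0.19, against 0.34 over all promoters and 0.45 over the 12775 promoters whose genes were above 1 CPM in the control shRNA libraries. This order turned with the counting, since the members' median was 0.36 against 0.29 with 1 read per position and strand and 0.66 against 0.53 within 1 kb of the start.

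In bins of 250 bases, the Pontin signal of Ezh2 was highest in the bin just before the gene start, which holds the upstream bases of the sequence printed above, with 0.540 RPM (reads scaled by library size, as CPM) against 0.175 for GFP. That of Rbbp4 was highest 500 to 250 bases before the start, with 0.712 against 0.291 RPM. The mean over expressed genes was highest just after the start, with 0.308 for Pontin and 0.227 for GFP. The Ezh2 ratio depended on which start was taken: the mean over its 3 annotated coding starts was 0.87, and that of Rbbp4, over 3 starts, was 1.29. With 1 read per position and strand, Ezh2 had 1.23 and Rbbp4 0.74.

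**Figure D5:**
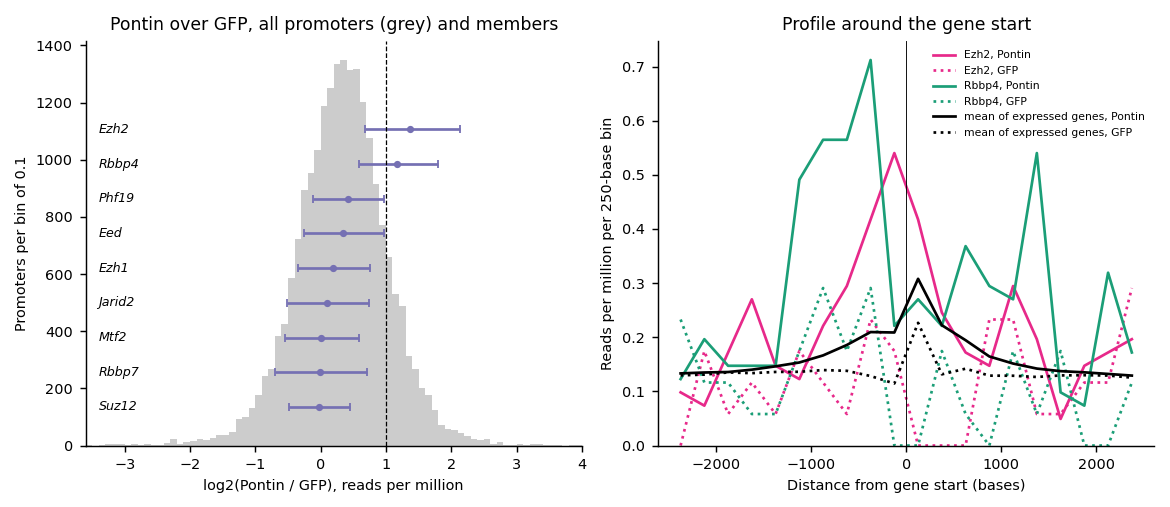
Left, log2 of Pontin over GFP RPM in the promoter window for 21178 protein-coding promoters (grey, promoters per bin of 0.1) and for the 9 members with 95% counting intervals, at arbitrary heights; the dashed line is a ratio of 2. Right, RPM per 250-base bin by distance from the gene start for Ezh2, Rbbp4 and the mean of expressed genes (Pontin solid, GFP dotted); Ezh2 and Rbbp4 were the members beyond the line.

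Genes that act with or against PRC2 were described by lists. Of 5 expressed accessory genes outside the member list, 2 were called upregulated at OHT 3D, 1 upregulated and 2 downregulated at OHT 4D, and 2 upregulated and 1 downregulated at Tc 2D, where 23.9% and 25.8% of all genes were. The shares over all genes were 6.01% and 5.88% in the OHT 3D library and 6.48% and 8.89% a day later. E130012A19Rik, the mouse gene of the ELONGIN-binding PRC2 subunit EPOP, was 116 CPM in WT, 208 at OHT 3D, then 245 at OHT 4D, with 38.6 at Tc 2D. With log2-fold-changes of 0.84, 1.07 and -1.56 it was called in all 3 comparisons. It was also higher in both linc1253 shRNA libraries, 257 and 222 CPM, than in the controls, 175 and 123 CPM, although 0 of the 5 genes passed limma's adjusted p. Both knockdown libraries lay above both controls for 18.8% of all genes. Phf1, the Polycomb-like paralogue of Mtf2 and Phf19, was 4.52 CPM in WT and 12.7 at Tc 2D, a log2-fold-change of 1.31.

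Of 25 genes of PRC1, the complex that ubiquitylates histone H2A and binds the mark of PRC2, 0 were called at OHT 3D, 3 were called upregulated and 3 downregulated at OHT 4D, and 13 were called upregulated and 5 downregulated at Tc 2D. Over all genes, 6.48% rose and 8.89% fell past the limit at OHT 4D, beside 23.9% and 25.8% for Tc 2D. Phc1, the Polyhomeotic subunit that ES cells mostly express, was 522 CPM in WT and 86.7 at Tc 2D, a log2-fold-change of -2.58, whereas Bmi1 was 5.32 and 24.2 CPM, a log2-fold-change of 2.00. The PRC1 median at Tc 2D was 0.62, beside a median of -0.60 for the 9 PRC2 members and -0.06 for all genes. Against the ZHBTc4 controls the PRC1 counts were 12 and 6 with a median of 0.41, beside a median of -0.43 for the PRC2 members. The H3K27 demethylases Kdm6a and Kdm6b were not called in any of the 3 comparisons, with values between -0.56 and 0.22.

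Of 22 genes of the other complexes that hold Rbbp4 or Rbbp7, 12 were called downregulated and 1 upregulated at Tc 2D, where 25.8% and 23.9% of all genes were, and 9 were not called. Their median log2-fold-change was -0.63. Against the ZHBTc4 controls 8 were called downregulated and 1 upregulated, with a median of -0.42. Smarca5, the ATPase of ISWI remodellers, had -1.65, and the deacetylase Hdac1 had -1.39. At OHT 3D the corresponding counts were 1 downregulated, Chaf1b at -0.60, and 0 upregulated. At OHT 4D 3 were called downregulated and 0 upregulated, namely Gatad2b (-1.32) and the remodelling subunits Bptf (-0.83) and Smarca1 (-0.82).

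After linc1253 knockdown, 0 genes of the 9 lists described here passed the adjusted p of this limma fit, as did 0 of all 13407 genes. Of 18 expressed fibroblast markers 15 had a higher mean with the linc1253 shRNA, with a median log2-fold-change of 0.40 beside 0.00 over all genes. Col3a1 was 0.0923 and 0.258 CPM in the control and 0.258 and 1.27 CPM in the knockdown libraries. It thus exceeded the filter of 1 CPM in linc1253 shRNA replicate 2 alone. Col1a1 was 5.67 and 6.24 CPM in the control and 5.18 and 12.5 CPM in the knockdown libraries, so its groups overlapped. How many of the 15 rest on 1 library was not counted. The 20 listed genes summed to 1369 and 1444 CPM in the control and 1269 and 1459 CPM in the knockdown libraries. Of 18 proliferation genes 15 had a lower mean, with a median of -0.06, and of 11 trophectoderm markers 9 had a lower mean, with a median of -0.12. The developmental genes described next had 10 higher and 5 lower means of 15 kept, with a median of 0.11, and summed to 99.3 and 91.3 CPM in the control and 113.9 and 113.3 CPM in the knockdown libraries. The part of these genes' cells in the Suz12 values was not tested.

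Developmental genes that are known to carry H3K27 methylation in ES cells were described as a further list, whose mRNA levels do not measure PRC2 function. The list holds Gata6 and Bmp1, which the paper already reports as upregulated after Pontin depletion. Of 35 listed, 20 passed 1 CPM, and since a gene that is low in WT passes through the library where it is high, these counts lean upward. At OHT 3D 9 were called upregulated and 1 downregulated, at OHT 4D 15 and 0, and at Tc 2D 10 and 3 (8 and 4 of 15 kept against the ZHBTc4 controls). The shares over all genes, upregulated and downregulated, were 6.01% and 5.88%, then 6.48% and 8.89%, with 23.9% and 25.8% for Tc 2D. The summed level of all 34 genes found was 61.1 CPM in WT, 113 at OHT 3D, then 146 at OHT 4D, with 189.5 at Tc 2D. Bmp4 was 9.12 CPM in WT, 29.6 at OHT 3D, then 25.2 at OHT 4D, with 23.8 at Tc 2D. Eomes, at 7.55 CPM in WT, was 4.39 at OHT 3D and 44.1 at Tc 2D. Hand1, Eomes and Cdx2 also stand in the trophectoderm list, so the lists are not separate evidence. The fibroblast markers given above were also higher in the OHT libraries, and their part in these counts was not tested. Histone methylation was not measured in these libraries.

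Reads of some members could be shared with other loci, since the aligner allowed up to 10 locations per read. Of the 32-base words of the members' exons, 23.1% for Rbbp7, 8.28% for Suz12 and 7.75% for Rbbp4 occur elsewhere in the NCBIM37 genome, and at most 4.41% for the other 6. Ezh1 shared 0 such words with Ezh2, and Rbbp4 shared 0 with Rbbp7. Exons of other annotated genes cover 18.0% of the exonic bases of Rbbp4 and 7.51% of those of Mtf2, on the opposite strand in both cases, and the strand setting of the counting is not stated, so the levels of these genes are less certain.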

How the data were processed

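mRNA was sequenced in 8 libraries and Pontin or GFP ChIP-seq done in 2 libraries of mouse ES cells, grouped by their labels. Per the methods of the study, cutadapt removed adapters and low-quality ends, TopHat (mRNA) or Bowtie2 (ChIP) placed the reads on NCBIM37, and mRNA reads were assigned to genes by HTSeq, and scaled with the TMM method of edgeR. Tool versions are not given in the sources used here. The deposited mRNA values are CPM in 2 tables of 4 libraries, each normalized on its own, and all of their value columns were used. Dividing CPM by the smallest step of a library gave whole reads, within 0.01 read, for 100% of values. The deposited ChIP files list 1 read per line with a mapping quality score, mates of a pair on separate lines, and scores began at 6 (Pontin) and 5 (GFP).

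Symbols were matched for 22337 of 22713 identifiers. A gene entered the Pontin and Oct4 comparisons when any of the 4 libraries exceeded 1 CPM. After adding 1, a shift beyond 0.58 on the log2 scale counted as a call, with no p. Intervals are 95% and cover counting error only. For linc1253, limma 3.58.1 with trend (R 4.3.3) was fitted to log2(CPM + 1) of 2 against 2 libraries, with Benjamini-Hochberg adjustment over all genes kept. Recovered reads went into the quasi-likelihood and exact tests of edgeR 4.0.16 and into DESeq2 1.42.0. The calls, the limma fit and the ChIP ratio were run on simulated data with changes larger than those of any member. For the calls and the ChIP ratio the simulated spread was counting error only. These runs checked the code and do not show that changes of the size reported here would be found. ChIP reads were counted by midpoint from 2500 bases before to 500 after each gene start, and promoter sequences and the 32-base words were read from the NCBIM37 genome. Python 3.11.15, numpy 2.4.6, pandas 2.3.3 and scipy 1.17.1 were used.

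The members and the gene lists were chosen with earlier results of these data known. Named were the 9 members, up to 4 genes per list and comparison with the largest absolute log2-fold-change at a mean of at least 5 CPM, and the 3 genes most like Ezh2 and Ezh1. Some genes that the rule allows are left out. Col1a1 at OHT 3D and after linc1253 knockdown, Lum, Col3a1, Mki67 at Tc 2D and the Y-linked genes were chosen after their values were seen. Ruvbl1 and Pou5f1 were named as the targeted genes. Alternatives were pseudocounts of 0.5 and 3, no filter, a filter at 5 CPM, median-ratio scaling, no TMM factor, a limit of 1, the ZHBTc4 controls, limma without trend or with a replicate block, edgeR, DESeq2, an unadjusted p of 0.05 with a limit on the log2-fold-change, leaving out each library, and for ChIP 1 read per position and strand, 1 kb either side of the start, median-ratio scaling and all coding starts. lincRNAs were not analysed here.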

Additional observations from a re-analysis of the deposited data

Results flagged for a closer look

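Jarid2 and Rbbp4 lay on opposite sides of WT at the 2 times after OHT, with counting intervals that left out 0 at both. The log2-fold-change of Jarid2 was 0.44 at OHT 3D and -0.15 at OHT 4D, and that of Rbbp4 was -0.15 at OHT 3D and 0.061 at OHT 4D. Each time point had 1 library and both were set against the same WT library, so the difference between the times was not tested. Counting intervals also understate the spread between libraries, as the shRNA replicates show. Groups of 1 or 2 libraries are too small for a search for outlying samples.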

How the results depend on the processing

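At Tc 2D the number of members called downregulated, 6, was 5 with a pseudocount of 3, where 22.0% of genes were called, 4 with median-ratio scaling (24.0%) or against the ZHBTc4 controls (24.0%), 2 without the TMM factor (16.0%) and 1 at a limit of 1 (12.6%), and the number called upregulated, 0, was 1 without the TMM factor and 2 against the ZHBTc4 controls, where Phf19 reversed to 0.82. The counts at OHT 3D and OHT 4D stayed at 0 under all alternatives run. After linc1253 knockdown, 0 members were called at the adjusted p under all fits except limma with the replicate block. That fit called 1, Suz12 (adjusted p = 2.41e-05), among 1960 genes (14.6%). An unadjusted p of 0.05 in limma with a limit on the log2-fold-change also gave 1, Suz12. By that rule 303 genes were called higher and 287 lower of 13407. Its limit was lower than the one used against WT, since Suz12 passed it at -0.47. Same-numbered libraries deviated together (r = 0.67 over genes), but their numbers are not stated to mark a shared culture. A fit without 1 library also leaves its same-numbered partner unmatched. Leaving out 1 library at a time kept 0 members called, with log2-fold-changes from -0.66 to -0.28 for Suz12 and sign changes for 4 members that overlap between groups: Ezh2 from -0.12 to 0.061, Eed from -0.11 to 0.044, Jarid2 from -0.078 to 0.20 and Phf19 from -0.36 to 0.047. The median Pontin over GFP ratio of the members, 0.19, was 0.36 with 1 read per position and strand, 0.66 within 1 kb, 0.31 over all coding starts, and -0.15 with median-ratio scaling, which subtracts the median of all promoters from every value, so that this sign follows from the scaling. With median-ratio scaling of the ChIP ratio, 1 member was above 1, where 1298 of 21178 promoters were. With 1 library per condition, depth sets only the counting error, and the cause of these changes was not tested.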
